A study of Mus musculus with 18 samples.

Results

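The 6 S100 genes described here are S100a8, S100a9, S100a6, S100a11, S100a10 and S100a4, which were listed by name and found through their Ensembl identifiers among the 32328 genes measured in sorted mouse neutrophils. All 6 passed the filter on low values, S100a4 with levels at or near 0 in many libraries. Neutrophils were sorted from adult C57BL/6 mice aged 8 to 12 weeks on CD45, CD11b and Ly6G, together with the dye DAPI, with a stated typical purity above 95%, from 6 sources. These were colon (labelled Intestine), ear (labelled Skin), lung, spleen, blood and bone marrow (labelled BM). Each source gave 3 libraries, 18 in all, and no genetic change or treatment is named for any group. The study examined how the transcriptomes of neutrophils differ between these 6 tissues. The labels do not say whether the 3 libraries of a tissue came from separate animals, so the p-values below measure only the spread between these libraries, which may be technical.

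S100 proteins are small calcium-binding proteins with EF-hand motifs that mostly act as dimers. S100a8 and S100a9 pair to form calprotectin, which is held in the neutrophil cytosol at very high abundance, binds zinc and manganese and so starves microbes of them, and after release acts as an alarmin on Toll-like receptor 4 and on the receptor for advanced glycation end products. S100a6, S100a11, S100a10 and S100a4 are made by many cell types, fibroblasts and epithelia among them, and bind annexins, myosin and other partners at membranes and on the cytoskeleton.

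All 6 genes lie on mouse chromosome 3 in the mm10 build (GENCODE vM21 annotation). S100a4 (ENSMUSG00000001020, chr3:90603771-90606045, plus strand), S100a6 (ENSMUSG00000001025, chr3:90612882-90624181, plus strand), S100a8 (ENSMUSG00000056054, chr3:90668978-90670035, plus strand) and S100a9 (ENSMUSG00000056071, chr3:90692632-90695721, minus strand) are neighbours in one cluster. S100a11 (ENSMUSG00000027907, chr3:93520488-93526287, plus strand) and S100a10 (ENSMUSG00000041959, chr3:93555080-93564643, plus strand) stand next to each other farther along the chromosome. S100a4 overlaps another annotated gene on the same strand, and a processed pseudogene of S100a11 is in the table as well, so the estimated counts of these 2 genes are uncertain where reads could be split.

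S100a8, S100a9, S100a6 and S100a11 moved together across the tissues, as described below, and the 250 bases before the RefSeq start of each (build GRCm38.p6) are shown to let a reader see what their starts have in common. Capitals mark matches, on either strand, to 4 short motifs: TTGNNNAA (C/EBP factors, which drive granulocyte genes), GAGGAAGT (PU.1), TGANTCA, which is bound by AP-1 factors of the Fos and Jun families, and the letters TATAAA of a TATA box.
S100a8, chr3:90668821-90669070, plus strand: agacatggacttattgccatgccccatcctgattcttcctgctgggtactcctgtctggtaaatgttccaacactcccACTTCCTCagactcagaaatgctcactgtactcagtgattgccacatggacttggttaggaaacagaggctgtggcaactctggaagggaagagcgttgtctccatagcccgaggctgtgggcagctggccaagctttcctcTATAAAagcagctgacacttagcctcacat
S100a9, chr3:90695722-90695971, minus strand: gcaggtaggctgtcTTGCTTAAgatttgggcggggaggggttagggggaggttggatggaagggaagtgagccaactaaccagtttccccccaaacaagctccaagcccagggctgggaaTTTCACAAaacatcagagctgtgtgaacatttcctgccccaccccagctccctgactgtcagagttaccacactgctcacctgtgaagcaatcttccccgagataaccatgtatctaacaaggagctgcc
S100a6, chr3:90612644-90612893, plus strand: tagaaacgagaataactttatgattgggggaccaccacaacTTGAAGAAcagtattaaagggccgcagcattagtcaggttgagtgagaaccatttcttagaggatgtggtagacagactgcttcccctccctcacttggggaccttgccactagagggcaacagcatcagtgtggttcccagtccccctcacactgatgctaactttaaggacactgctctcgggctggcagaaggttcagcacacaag
S100a11, chr3:93520246-93520495, plus strand: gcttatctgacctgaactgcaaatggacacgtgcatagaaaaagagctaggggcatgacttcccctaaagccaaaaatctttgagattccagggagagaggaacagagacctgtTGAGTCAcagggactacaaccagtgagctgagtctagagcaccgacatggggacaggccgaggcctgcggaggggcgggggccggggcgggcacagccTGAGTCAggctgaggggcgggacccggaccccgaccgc

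No motif was shared by all 4 windows. The S100a8 window held a PU.1 match at -172 and a TATA box at -30 relative to the start, that of S100a9 held C/EBP matches at -236 and -130, that of S100a6 held 1 C/EBP match at -209, and that of S100a11 held AP-1 matches at -136 and -38. The matches did not overlap each other. Among 32851 RefSeq promoter windows of the same length, 33.3% held a C/EBP match, 2.44% a PU.1 match, 6.75% an AP-1 match and 12.4% a TATA box. In all, 5 of the 6 genes had a window in the RefSeq table. The fifth, S100a4, held only a TATA box at -31. Such matches describe letters in a window and do not show binding.

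Values are given as scaled counts, that is the estimated read count of a gene (plus 0.5) per 1e+06 of the library's normalised total, without division by gene length. Total estimated counts ranged from 2935580 to 12087900 per library. The 3 skin libraries stood apart. The root mean square deviation of their log2 values from the group means was 1.31 to 1.66, against 0.53 to 0.98 in the other 15 libraries, and the tests across tissues, the differences between the other tissues, the ratios and the correlations are therefore also given without them. Of 15 neutrophil markers, 15 fell in intestine and 12 in skin relative to blood, 4 fell in lung, and Ly6g, the antigen of the sort, was at 3.14, 0.41 and 0.35 scaled counts in the intestine libraries and 0.22, 0.22 and 26.9 in the skin libraries (replicates 1, 2 and 3), against 69.3 to 237 in blood. The shares of all tested genes that fell relative to blood were 10.1% in intestine, 10.4% in skin and 1.02% in lung. In these bulk samples, fewer cells of a type and less RNA per cell cannot be told apart.

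Taken as a set, the 6 genes made up 2.32 to 2.90% of all estimated counts in the bone marrow libraries and 1.71 to 2.06% in blood. Their share was 0.576 to 0.924% in spleen and 0.391 to 0.889% in lung. It was 0.0640 to 0.0771% in intestine and 0.0607 to 0.512% in skin. Levels differed between the 6 tissues for 5 of the 6 genes (limma F test, Benjamini-Hochberg adjusted p below 0.05 over 16157 genes), S100a4 being the exception, against a background of 31.9% of all genes tested. Without skin the same 5 genes passed, with adjusted p values (limma) of 3.33e-09 for S100a9, 1.60e-08 for S100a8, 3.31e-06 for S100a6, 6.42e-06 for S100a11 and 0.000162 for S100a10, and S100a4 had 0.210.

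Calprotectin transcripts were highest in bone marrow and blood and lowest in intestine. S100a9, the larger calprotectin subunit, was at 17666, 23159 and 17982 scaled counts in the bone marrow libraries and at 14363, 15001 and 13207 in blood. It was at 3482, 5192 and 5719.8 in spleen and at 2388, 3424 and 7486 in lung. Bone marrow and blood did not overlap with spleen, lung, intestine or skin, whereas spleen and lung overlapped. The intestine libraries were at 430.3, 267 and 377, below all other libraries, and the skin libraries ranged from 608 in replicate 1 to 8093 in replicate 2, with 3879.7 in replicate 3. The F test gave S100a9 an adjusted p of 4.56e-06. Relative to blood, S100a9 fell by 5.33 ± 0.58 (SE) on the log2(scaled count + 1) scale in intestine (limma adjusted p = 2.77e-06) and by 2.41 ± 0.58 in skin (adjusted p = 0.00807). Without skin replicate 1 the skin difference was -1.34 (limma adjusted p = 0.0167). The differences of spleen (-1.59, adjusted p = 0.370) and lung (-1.85, adjusted p = 0.0632) from blood did not pass.

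S100a8, the smaller subunit, which carries much of the pair's signalling through Toll-like receptor 4, followed the same order except in skin. Its levels were 3824, 6313 and 3588 in bone marrow and 3586, 4516 and 2607 in blood. They were 666, 884 and 1433 in spleen and 362, 601 and 1364 in lung. Intestine was again lowest at 112, 83.5 and 79.7, with no overlap with bone marrow, blood, spleen or lung. In skin, replicate 1 was at 77.0, below every intestine library, while replicate 2 reached 2992, within the range of blood, and replicate 3 was at 978. The fall from blood to intestine was 5.25 ± 0.79 on the log2 scale (limma adjusted p = 6.32e-05). The difference between skin and blood was -2.51 ± 0.79 (adjusted p = 0.0351), and it was -1.03 with an adjusted p of 0.160 (limma) without skin replicate 1. Intestine was also below spleen (-3.37, adjusted p = 0.00435) and below lung (-2.86, adjusted p = 0.0303), a call lost in 7 of 27 alternative settings. Divided by transcript length, the mean of S100a9 in blood was 27528 scaled counts per kb and that of S100a8 was 7345.

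**Figure D1:**
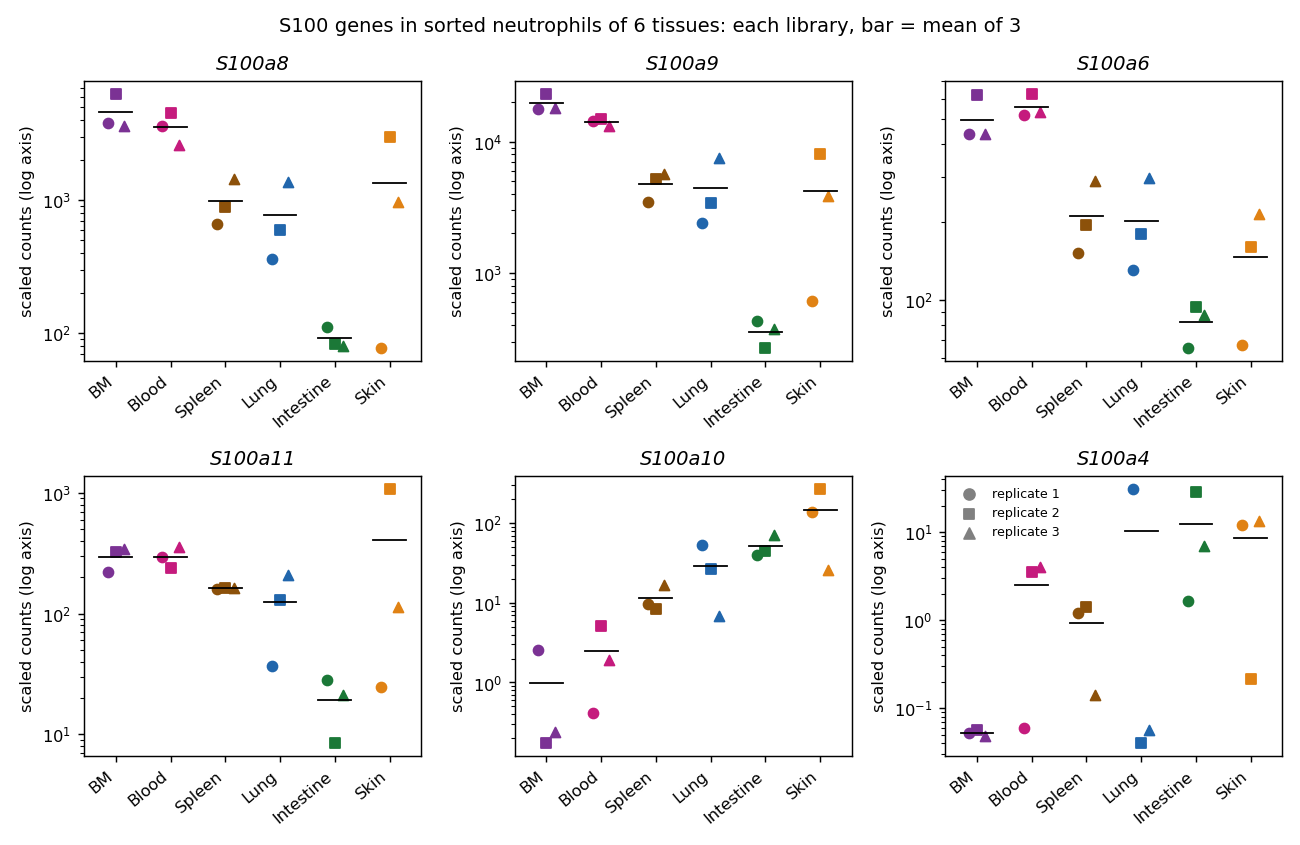
Scaled counts of the 6 S100 genes in each of the 18 libraries, 1 panel per gene, on log axes with their own ranges; symbols mark the replicate, colours the tissue, and the bar is the mean of 3 libraries. S100a8, S100a9, S100a6 and S100a11 are lower in intestine than in bone marrow or blood, S100a10 is higher there, and the S100a4 points below 0.1, as well as skin replicate 2, are libraries with 0 counts.

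The proportion of the 2 calprotectin transcripts varied far less than either level. The median ratio of S100a9 to S100a8 was 4.62 in bone marrow and 4.01 in blood. It was 5.23 for spleen and 5.69 for lung, and stood at 3.83 for intestine and 3.97 for skin. Single libraries ran from 2.71 to 7.89, both ends being skin libraries. No tissue passed against the other 15 libraries, but with 24 tests this design cannot bring a single ratio below 0.0588 after adjustment (smallest possible exact permutation p 0.00245). Lung had the smallest p for this ratio, an exact two-sided permutation p of 0.0686 (adjusted, 0.252). Without skin the lung difference was 0.46 on the log2 scale, with an exact permutation p of 0.0132 and an adjusted p of 0.0879.

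S100a6, also called calcyclin, binds calcium-dependently to annexins and to the calcyclin-binding protein, and is found in many proliferating and stromal cells. Its levels were 437, 622 and 437 in bone marrow and 519, 627 and 533 in blood. They were 152, 194 and 289 in spleen, 131, 179.5 and 296 in lung, and 67.2, 159.9 and 215 in skin. Intestine gave 65.2, 94.3 and 87.4, which overlapped with skin and with no other tissue. The fall relative to blood was 2.76 ± 0.46 (SE, log2 scale) in intestine (limma adjusted p = 0.000148), 2.07 ± 0.46 in skin (adjusted p = 0.00450) and 1.54 ± 0.46 in lung (adjusted p = 0.0470). The last of these calls was lost in 17 of 27 alternative settings. The spleen difference, -1.45, did not pass (adjusted p = 0.233).

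S100a11, or calgizzarin, binds annexin A1 and takes part in membrane repair and keratinocyte growth control. It was at 223, 326 and 342 scaled counts in bone marrow, 296, 238 and 357 in blood, and 159.8, 163 and 163 in spleen. Lung gave 36.9, 130.5 and 208, and intestine 28.1, 8.39 and 21.0. Intestine did not overlap with bone marrow, blood, spleen or lung. In skin, replicate 2 was at 1079, above all other libraries, whereas replicate 1 was at 24.9 and replicate 3 at 113. S100a11 fell by 4.01 ± 0.87 on the log2 scale from blood to intestine (limma adjusted p = 0.00172). The difference between skin and blood did not pass (-0.997 ± 0.87, limma adjusted p = 0.479). Skin was above intestine by 3.02 ± 0.87 (adjusted p = 0.0207), a call lost in 5 of 26 alternative settings. Among these were the settings without skin replicate 2 (1.58, adjusted p = 0.0984) and without intestine replicate 2 (2.54, adjusted p = 0.0965). The F test across tissues (limma adjusted p = 0.00874) gave 0.0645 without intestine replicate 2 and 0.543 without the intestine libraries.

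S100a10, which holds annexin A2 in a heterotetramer at the plasma membrane and, unlike other S100 proteins, does not bind calcium, ran the other way. It was nearly absent from bone marrow (2.56, 0.17 and 0.24 scaled counts, from 24, 1 and 2 estimated counts) and low in blood (0.42, 5.17 and 1.93). Spleen libraries were at 9.78, 8.40 and 16.5, above all bone marrow and blood libraries. Lung was at 53.7, 26.4 and 6.91, intestine at 40.3, 44.5 and 71.7, and skin at 138, 269 and 26.1. The rise over blood was 4.13 ± 0.91 on the log2 scale in intestine (limma adjusted p = 0.00184) and 5.09 ± 0.91 in skin (adjusted p = 0.000857). In lung the difference was 2.95 with an adjusted p of 0.0566, and in spleen 2.04 with an adjusted p of 0.588, so neither passed. Lung (3.72, adjusted p = 0.0134), intestine (4.90, adjusted p = 0.000430) and skin (5.86, adjusted p = 0.000188) were above bone marrow. With a pseudocount of 5 the lung difference was 2.25 (limma adjusted p = 0.0555) and the intestine difference 3.24 (adjusted p = 0.00140), and the lung call was lost in 5 of 27 alternative settings.

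S100a4, also known as fibroblast-specific protein and a binding partner of non-muscle myosin IIA, was low throughout. All 3 bone marrow libraries had 0 counts. Blood gave 0 counts in replicate 1, and 3.54 and 4.01 scaled counts in replicates 2 and 3. Spleen was at 1.20, 1.42 and 0.14, and lung at 31.0 in replicate 1 and at 0 counts in replicates 2 and 3. Intestine gave 1.65, 28.8 and 7.03, and skin 12.1 in replicate 1, 0 counts in replicate 2 and 13.5 in replicate 3. With all libraries the F test did not pass (limma adjusted p = 0.289), nor did any of the 15 pairwise differences. Without skin only the difference of intestine from bone marrow passed (3.03, limma adjusted p = 0.0377), where 37.1% of all genes did. Against the limit that 0 counts allow in bone marrow (3 counts per library), the intestine mean was at least 39.6-fold higher and the blood mean at least 8.04-fold higher, or 13.8-fold and 5.71-fold without the highest library of each, with the spread within tissues as wide as given above. Its overlap with another gene on the same strand makes these low values uncertain.

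Over all 15 pairs of tissues, 31 of 90 differences of the 6 genes passed the test, 9 higher (background 5.57%) and 22 lower (background 5.45%) in the later tissue of the order bone marrow, blood, spleen, lung, intestine, skin, except that bone marrow was set against blood. In intestine against blood 5 of 6 passed, 1 higher and 4 lower (background 26.0%), and in intestine against bone marrow the same number passed (background 23.5%). The count for skin was 4 of 6 against blood (background 16.1%) and 4 of 6 against bone marrow (background 17.5%), in each case S100a10 higher and S100a8, S100a9 and S100a6 lower. With only the 6 libraries of the 2 tissues compared, none of these calls against blood passed. The limma adjusted p was then 0.212 for S100a8, 0.121 for S100a9, 0.0813 for S100a6 and 0.0590 for S100a10. Of the calls between skin and bone marrow, only that of S100a10 held in this setting. Lung against bone marrow gave 3 of 6 (background 6.18%), namely S100a10 higher and S100a8 and S100a9 lower, and lung against blood 1 of 6 (background 6.29%). Intestine against spleen gave 3 of 6 (background 17.5%), all lower, and intestine against lung 2 of 6 (background 6.71%), both lower. Skin was above intestine for S100a8, S100a9 and S100a11 (background 17.9%) and above spleen for S100a10 (background 13.6%). None of these calls passed with only the 6 libraries of the 2 tissues compared (limma adjusted p values of 0.0707 to 0.205). The call for S100a10 between skin and spleen was lost in 8 of 26 alternative settings, with adjusted p values (limma) of 0.0562 to 0.210. That for S100a8 between skin and intestine was lost in 6, among them the one without skin replicate 2 (1.59, adjusted p = 0.128). Between lung and bone marrow the call was lost in 15 of 27 settings for S100a8 and in 6 for S100a9. The median log2 difference of the 6 genes from blood was -3.39 in intestine, where the median of all tested genes was 0.12, and -1.53 in skin, where it was -0.26.

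None of the 6 genes passed between spleen and lung (background 4.46%), between lung and skin (background 8.54%), between bone marrow and blood (background 0.204%), between spleen and bone marrow (background 0.297%) or between spleen and blood (background 0.607%). The libraries of spleen and blood nevertheless did not overlap for 5 of the 6 genes, against 29.2% of all genes. These comparisons share 1 estimate of spread with the skin libraries. When the skin libraries were left out, spleen fell below blood for S100a8 (-1.88, limma adjusted p = 0.0109), S100a9 (-1.59, adjusted p = 0.0101) and S100a6 (-1.45, adjusted p = 0.0144), against a background of 2.54%. Lung then fell below blood for S100a8 (-2.38, adjusted p = 0.000319), S100a9 (-1.85, adjusted p = 0.000630), S100a6 (-1.54, adjusted p = 0.00199) and S100a11 (-1.54, adjusted p = 0.0347), and S100a10 rose (2.95, adjusted p = 0.0131), against a background of 16.1%. Among the 6 pairs of bone marrow, blood, spleen and lung, the number of passing differences was 4 of 36 with all libraries (background 3.01%), 16 without skin (background 7.69%) and 16 without both skin and intestine (background 8.87%).

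**Figure D2:**
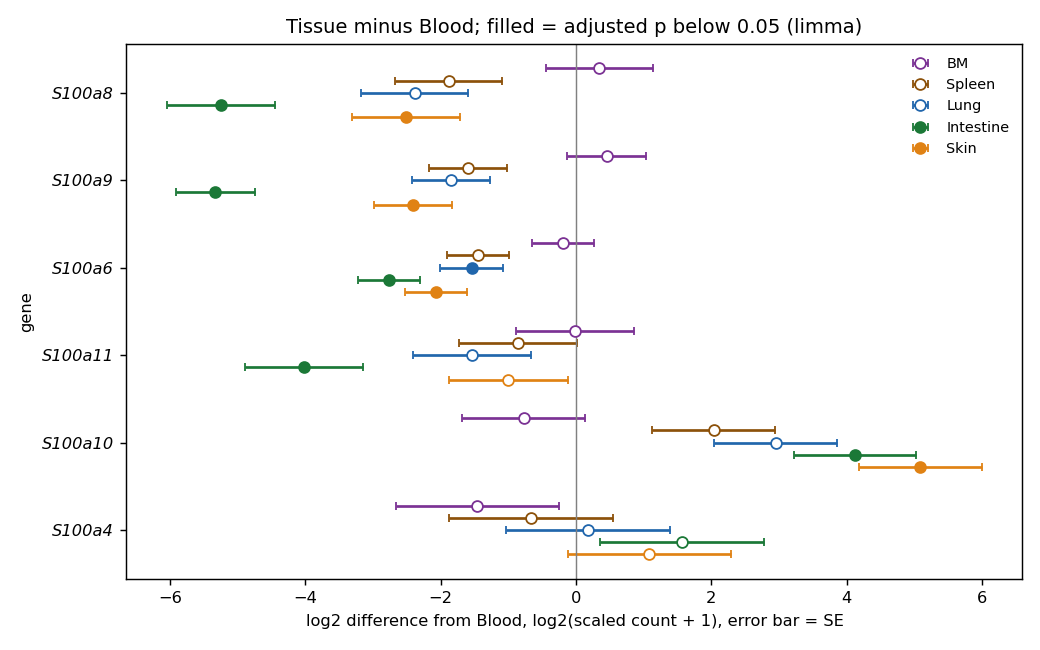
Log2 difference of each S100 gene between a tissue and blood, from log2(scaled count + 1) with 3 libraries per tissue; bars are standard errors from limma and filled points have an adjusted p below 0.05. S100a8 and S100a9 in intestine lie near -5 and S100a10 in skin near 5, while the bone marrow points of S100a8, S100a9, S100a6 and S100a11 lie between -0.18 and 0.46, that of S100a10 at -0.77 and that of S100a4 at -1.46.

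The order of tissues was, by mean, bone marrow, blood, spleen, lung, skin and intestine for S100a9, and blood, bone marrow, spleen, lung, skin and intestine for S100a6. S100a8 had skin between blood and spleen, and S100a11 had skin first. Both of these positions rested on the high value of skin replicate 2, and on the log2 scale skin was below spleen for S100a8 (-0.63) and below blood for S100a11 (-0.997), neither difference passing. S100a10 ran from skin through intestine, lung, spleen and blood to bone marrow. Of neighbours in these orders, blood and skin differed for S100a8 (adjusted p = 0.0351), lung and intestine for S100a8 (adjusted p = 0.0303), and skin and intestine for S100a9 (limma adjusted p = 0.00162). No other neighbouring pair passed with all libraries. With the skin libraries left out, spleen was below blood for S100a9 (-1.59, limma adjusted p = 0.0101, background 2.54%). Spleen was then also below bone marrow for S100a6 (-1.26, adjusted p = 0.0388, background 2.05%). Intestine was below lung for S100a11 (-2.48, adjusted p = 0.00116, background 15.8%). Among pairs that became neighbours once skin was removed, spleen was below blood for S100a8 (-1.88, limma adjusted p = 0.0109). In the same way, intestine was below lung for S100a9 (-3.48, adjusted p = 1.18e-06) and S100a6 (-1.22, adjusted p = 0.00975).

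Within intestine, the mean per kb was 695 scaled counts for S100a9, 189 for S100a8, 138 for S100a6, 89.8 for S100a10, 37.5 for S100a11 and 29.9 for S100a4. In blood the corresponding means were 27528 for S100a9, 7345 for S100a8, 937 for S100a6, 581 for S100a11, 6.08 for S100a4 and 4.31 for S100a10. S100a10 thus had the lowest mean of the 6 per kb in blood and stood above S100a11 and S100a4 in intestine.

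Across the 18 libraries the Pearson correlation of log2 levels, a description over libraries that share tissue and depth, was 0.98 between S100a8 and S100a9, 0.93 between S100a8 and S100a6, and 0.92 between S100a8 and S100a11. It was -0.73 between S100a9 and S100a10, -0.84 between S100a6 and S100a10, and -0.49 between S100a11 and S100a10. Over the 15 libraries without skin the correlations of S100a8 with S100a9, S100a6 and S100a11 were 0.99, 0.97 and 0.94, and those of S100a10 with S100a9, S100a6 and S100a11 were -0.88, -0.89 and -0.86.

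The levels of S100a8 and S100a9 moved broadly with the summed level of the neutrophil markers. The 15 markers, among them Csf3r, Itgam, Cxcr2, Camp and Ltf, summed to 35175 to 44976 scaled counts in bone marrow and 17091 to 20113 in blood. The sums were 8798 to 11458 for spleen, 3789 to 11520.3 for lung, 869 to 12198 for skin and 781 to 1226 for intestine. Skin replicate 1, with the lowest S100a8 of all libraries, had the lowest marker sum in skin (869). The level of S100a9 relative to this sum, a quantity chosen after the values were seen and given without a test, had a median of 0.502 in bone marrow and 0.832 in blood. The median was 0.453 for spleen, 0.630 for lung, 0.663 for skin and 0.351 for intestine. Its single libraries lay between 0.342 and 0.840. Relative to single markers, also without a test, S100a9 varied more. Its ratio to Itgam was 8.03 to 10.7 in blood and 1.69 to 1.85 in intestine. Its ratio to Csf3r was 6.62 to 12.5 in bone marrow and 0.939 to 2.13 in spleen. S100a6 relative to the sum of the 15 markers had a median of 0.0124 in bone marrow, 0.0304 in blood and 0.0947 in intestine, where all 3 libraries (0.0532 to 0.121) exceeded all libraries of bone marrow, blood, spleen and lung. Relative to Csf3r the intestine libraries (0.370 to 0.548) were again above those of these tissues. Relative to Itgam they (0.256 to 0.650) overlapped with blood (0.324 to 0.448). S100a10 relative to the sum had a median of 5.89e-06 in bone marrow and 9.58e-05 in blood. The medians were 0.00111 for spleen, 0.00401 for lung, 0.0221 for skin and 0.0570 for intestine.

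Markers of some other cell types were higher in the tissues with high S100a10. The 10 fibroblast markers, all of which rose in intestine relative to blood, with 7 rising in lung and 6 in skin, summed to 6911 to 12615 in intestine, 1102 to 4665 in skin, 203 to 1401 in lung, and at most 62.7 in blood, bone marrow and spleen. The shares of all tested genes that rose relative to blood were 15.8% in intestine, 5.27% in lung and 5.64% in skin. One fibroblast marker was at 0 counts in bone marrow and 1 in spleen. The 10 endothelial markers summed to 1277 to 4510 in lung and 734 to 1843 in intestine, against 33.7 to 63.2 in blood and 63.1 to 244 in skin, where S100a10 was highest. The 12 macrophage and monocyte markers summed to 1171 to 2195 in intestine and 1262 to 5398 in skin, against 574 to 1006 in blood and 482 to 824 in lung. The 10 gut epithelium markers summed to 187 to 540.1 in intestine, 16.7 to 244 in skin and at most 22.9 elsewhere. The 12 keratinocyte markers summed to 15132, 6600 and 1167 in skin replicates 1, 2 and 3, against at most 166 elsewhere. The 10 lung epithelium markers summed to 777 to 3592 in lung, 190 to 855 in skin, 33.5 to 283 in intestine and 20.3 to 143 in blood. The part of these cells in the S100 differences was not tested. In spleen, where S100a10 was above all blood and bone marrow libraries without passing the test, the fibroblast sum (11.7 to 16.6) was below that of blood (33.5 to 62.7), whereas B-cell markers summed to 2129 to 4102 against 77.1 to 146 in blood. Dendritic cell markers (152 to 243 against 55.8 to 88.8) and T and NK cell markers (121 to 141 against 43.5 to 65.7) were also higher in spleen. The sums of all other marker lists in spleen overlapped with those of blood or were lower.

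**Figure D3:**
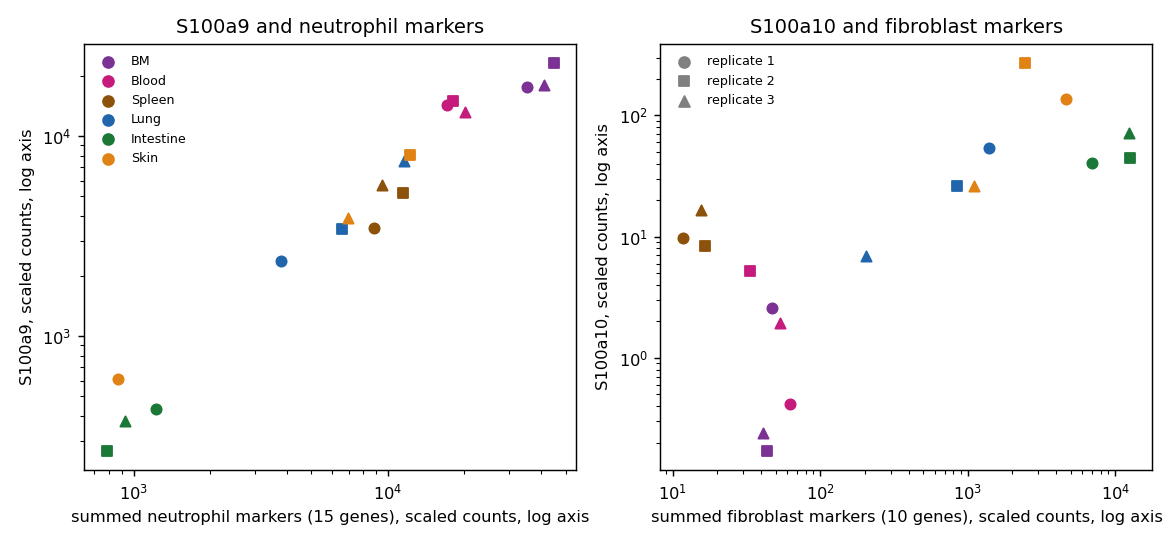
Left, S100a9 against the summed scaled counts of 15 neutrophil markers; right, S100a10 against the summed scaled counts of 10 fibroblast markers; each point is 1 of 18 libraries, coloured by tissue with the symbol giving the replicate, all axes logarithmic. S100a9 rises with the neutrophil sum over the whole range, and the spleen libraries have higher S100a10 than blood at a lower fibroblast sum.

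The partners of these proteins did not follow a single direction. Of 11 tested genes for binding partners, 9 passed the F test over tissues, where 31.9% of all genes did. Relative to blood, 2 were higher and 5 lower in intestine, 1 higher and 6 lower in skin, and 2 higher and 1 lower in lung, with none passing in bone marrow or spleen. Over all genes the shares were 15.8% higher and 10.1% lower in intestine, 5.64% and 10.4% in skin, and 5.27% and 1.02% in lung. In either direction they were 0.204% in bone marrow and 0.607% in spleen. Anxa1, the annexin bound by S100a11 and an inhibitor of neutrophil migration, fell by 3.11 ± 0.42 on the log2 scale in intestine (limma adjusted p = 2.06e-05), with means of 2244 ± 895 (SD, n = 3) in blood and 249.4 ± 51.5 in intestine. It also fell in skin (-2.31) and lung (-1.47). Anxa2, the partner of S100a10, had means of 924 ± 42.1 in blood and 221 ± 23.1 in intestine, a fall of 2.06 ± 0.41 (limma adjusted p = 0.000740). Ahnak, a giant scaffold protein that binds the S100a10 and annexin A2 complex, had means of 199 ± 17.96 in blood, 1816 ± 776 in lung, 3836 ± 381 in intestine and 3680.1 ± 1339 in skin. It rose by 4.26 ± 0.41 in intestine (limma adjusted p = 7.06e-07), 4.12 in skin and 3.08 in lung.

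Among the other partners, Plat, the tissue plasminogen activator whose work S100a10 aids at the cell surface, rose in intestine (4.62) and lung (3.86) from 0.67 scaled counts in blood. Ncf1, a cytosolic subunit of the NADPH oxidase to which calprotectin delivers arachidonic acid, fell in intestine (-2.78) and in skin (-1.73). Cyba, a membrane subunit of the same enzyme, fell in skin (-3.61). Myh9, the heavy chain of non-muscle myosin IIA bound by S100a4, fell in intestine (-1.22) and skin (-1.26). Sugt1, a co-chaperone that binds S100a6, fell in skin (-3.20).

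Because S100a10 rose and Anxa2 fell in intestine, their ratio within a library changed over a wide range. The median ratio of S100a10 to Anxa2 was 0.000302 in bone marrow and 0.00212 in blood. Spleen had 0.0294, lung 0.0618, intestine 0.215 and skin 0.225. Intestine libraries (0.194 to 0.290) did not overlap with those of bone marrow, blood, spleen or lung. The mean log2 ratio in intestine was above that of the other 15 libraries by 3.69 (exact two-sided permutation p = 0.0172, adjusted p = 0.191). Without skin the difference was 4.46, with an exact permutation p of 0.00440 (the smallest that design can give) and an adjusted p of 0.0440. It passed only because S100a4 to Myh9 in bone marrow tied at that p, since a single ratio could not pass in that design. S100a4 relative to Myh9 was below the other 15 libraries in bone marrow by 3.05 on the log2 scale (exact permutation p = 0.00245, the smallest possible, adjusted p = 0.0588), all 3 bone marrow libraries having 0 counts of S100a4. In all, 0 of 24 ratio tests passed after adjustment and 4 had an unadjusted exact permutation p below 0.05. Without skin 2 of 20 passed and 5 had such a p. The 2 were the tied ratios, that of S100a4 to Myh9 resting on 0 counts of S100a4 in bone marrow.

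**Figure D4:**
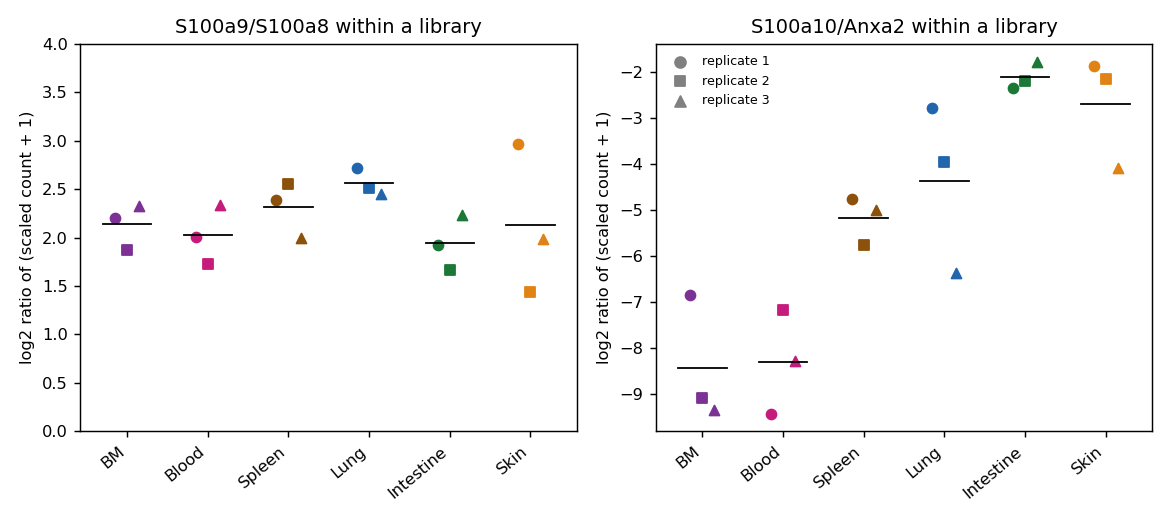
Log2 ratio of (scaled count + 1) within each of 18 libraries, for S100a9 to S100a8 (left) and S100a10 to Anxa2 (right), by tissue; symbols mark the replicate and the bar is the mean of 3. The calprotectin ratio stays between 1.44 and 2.97 in all libraries, whereas the intestine libraries lie above those of bone marrow, blood, spleen and lung for S100a10 to Anxa2.

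Of 10 other S100 genes, 7 were tested and 3 passed the F test, S100a16, S100a14 and S100b, a share not far from the 31.9% of all genes. None passed in bone marrow or spleen relative to blood, while 1 was higher for lung, 3 for intestine and 2 for skin, and none was lower. Of all genes, 5.27% were higher for lung, 15.8% for intestine and 5.64% for skin, and 1.02%, 10.1% and 10.4% were lower. In either direction, 0.204% of all genes passed for bone marrow and 0.607% for spleen. S100a16, a widely expressed S100 protein, was at 0 counts in all 3 blood libraries and had means of 26.1 ± 8.46 in lung, 42.7 ± 22.7 in intestine and 135 ± 177 in skin (SD, n = 3). Against the limit of 3 counts per library in blood, it was at least 78.4-fold higher in lung, 128-fold in intestine and 407-fold in skin. The skin libraries were at 50.3, 339 and 17.02, and without replicate 2 the bound for skin was 101-fold. S100a14, an epithelial S100 protein, rose in skin (28.0 ± 26.0 against 0.53 ± 0.72 in blood, limma adjusted p = 0.0331). S100b, known from glia, rose in intestine (11.3 ± 8.97 against 1.72 ± 2.88, limma adjusted p = 0.0469). S100a1, known from muscle, also rose there (19.5 ± 12.4 against 1.35 ± 1.47, limma adjusted p = 0.0393).

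Among 9 genes for receptors and co-receptors of S100 proteins, 6 passed the F test, against 31.9% of all genes. Cd36, a scavenger receptor for the complex of calprotectin with fatty acids, rose from 9.26 ± 8.90 in blood to 795 ± 488 in lung, 272 ± 66.3 in intestine and 134 ± 89.5 in skin (SD, n = 3), or by 6.40, 5.04 and 3.67 on the log2 scale. Ager, the receptor for advanced glycation end products and itself a marker of alveolar epithelium, rose in lung (107 ± 33.4 against 2.58 ± 0.75 in blood, limma adjusted p = 0.00555). Cd14, the co-receptor of Toll-like receptor 4, rose in lung (379 ± 147 against 54.4 ± 16.3, limma adjusted p = 0.00885). A total of 3 fell in intestine, where 10.1% of all genes did: Cd33, a sialic acid-binding receptor described as binding S100a9 (-3.72), Emb, a receptor related to basigin (-3.72), and Myd88, the adaptor of Toll-like receptors (-3.72). Cd33 (-2.13) and Myd88 (-2.04) also fell in skin (10.4% of all genes).

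Of 10 transcription factors linked to myeloid S100 genes, 7 passed the F test, where 31.9% of all genes did. Cebpe, needed for late granulocyte maturation, was the only one of them to pass between bone marrow and blood (99.3 ± 34.1 against 7.26 ± 7.22, log2 difference 3.90, limma adjusted p = 0.0294). No S100 gene of the 6 passed in that comparison, where 0.204% of all genes did. In intestine 4 fell relative to blood, Spi1 (which encodes PU.1, 611 ± 145 to 49.6 ± 20.4, log2 difference -3.67), Cebpd (-3.15), Cebpe (-2.42) and Stat3 (-1.83), and none rose. Skin had Cebpd (-3.41), Cebpe (-2.53) and Spi1 (-1.75) lower and Cebpa (2.12) higher. Over all genes the shares were 15.8% higher and 10.1% lower in intestine, and 5.64% and 10.4% in skin. Cebpb, a C/EBP factor of emergency granulopoiesis, passed the F test but no comparison with blood.

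The genes most like each S100 gene were sought among 6165 protein-coding genes with a mean of at least 20 scaled counts (6166 for S100a4), by the Pearson correlation of log2 levels over the 18 libraries, which share tissue and depth. Ranks without skin are given where a gene left the first 10. S100a8 had S100a9 first (0.98), followed by H3f3a (0.98), a histone gene, Gpi1 (0.97), a glycolytic enzyme, Pglyrp1 (0.97), a granule protein that binds peptidoglycan, and Tmsb4x (0.97, rank 13 without skin), which sequesters actin monomers. S100a9 had S100a8 (0.98), Sun2 (0.98) of the nuclear envelope, Kdm7a (0.98, rank 25 without skin), a histone demethylase, Pgd (0.97) of the pentose phosphate pathway and Arpc5 (0.97) of the Arp2/3 complex. S100a6 had G6pdx (0.97), which opens the pentose phosphate pathway, Tpm3 (0.97), a tropomyosin, Prr13 (0.96, rank 13 without skin), R3hdm4 (0.96, rank 28) and Gpi1 (0.96). S100a11 had Lrrc8d (0.97, rank 20 without skin), an anion channel subunit, Tlr13 (0.96), a receptor for bacterial ribosomal RNA, Nsd3 (0.96, rank 66) and Ubl3 (0.95, rank 76).

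S100a10 had other neighbours: Myof (0.94), a ferlin of membrane repair, Hmgn1 (0.94), a nucleosome-binding protein, Eef2 (0.94, rank 19 without skin), an elongation factor, Slc39a10 (0.94), a zinc transporter, and Hspa1b (0.93, rank 24), a heat-shock gene whose near-identical copy makes its count uncertain. Myof, for example, had means of 3.31 in bone marrow, 4.33 in blood, 22.6 for spleen, 100.3 for lung, 309 for intestine and 192 for skin. Hmgn1 had 2.71, 5.11, 55.5, 62.8, 109 and 183 in the same order. Spleen stood between blood and lung for both, as it did for S100a10. Both were picked for their likeness to S100a10 over these same libraries, so the shared order is not separate evidence. For S100a4 the highest correlations were lower: Rrp1 (0.74), Capn2 (0.73, rank 37 without skin), Tnfaip1 (0.72, rank 11), Neo1 (0.72, rank 48) and Col5a2 (0.71, rank 36), a fibrillar collagen.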

How the data were processed

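RNA-seq was analysed from 18 libraries of neutrophils from 6 tissues, 3 libraries each, made by cDNA amplification of total RNA and read as 61-nt single ends, per the labels' protocols. The submitters' processing notes name CASAVA, RSEM 1.3.1, limma and mm10, and the annotation is not given in the sources used here. The deposited signal values are labelled TPM by the authors' table, but they equal the estimated count plus 0.5 per 1e+06 of an effective library size and are not divided by gene length. The planned test on a log scale was kept. Estimated counts were whole within 0.01 for 50.1 to 66.9% of nonzero values, so no count test was run. Of 32328 identifiers, 31899 were named from GENCODE vM21.

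The 16157 genes that reached 1 scaled count in 3 or more libraries were tested with limma 3.58.1 (R 4.3.3) on log2(value + 1), with 6 group means, all 18 libraries, a trended variance, an F test and 15 pairwise contrasts, each Benjamini-Hochberg adjusted over all tested genes at 0.05. Differences are on that scale, which understates changes of low genes. Within-library ratios of partner transcripts were tested by exact two-sided permutation (own code with NumPy 2.4.6, 816 permutations, 24 tests). Scripts were tested on simulated data. Named genes were all 6 S100 genes, up to 4 per other list by F-test p, list members passing in a described comparison, and the 5 most correlated genes per S100 gene. Some genes that the rule names are not reported here. The members and lists were chosen with earlier results of these data known. Tried alternatives were other pseudocounts, no filter, other scalings, library weights, a replicate block, leaving out each library and leaving out tissues. Levels between genes were compared per kb of the median coding transcript.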

Additional observations from a re-analysis of the deposited data

How the results depend on the processing

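The number of S100 differences passing over 15 pairs of tissues was 31 (11.02% over all genes), 47 with library weights (16.7%), 23 with no filter (6.55%) or with median-of-ratios scaling (10.7%), and 25 to 40 when 1 library was left out. With only the 6 libraries of the 2 tissues compared it was 34 (13.6%), but most calls with skin were then lost. Over the 10 pairs without skin it was 19 (9.17% over all genes), 38 with library weights (22.5%), 36 without the skin libraries (16.9%), 33 with only the 6 libraries of the 2 tissues compared (19.6%), 15 with no filter (5.69%) or with median-of-ratios scaling (8.99%), and 14 to 30 with 1 library left out (30 without skin replicate 1). For the 6 pairs of bone marrow, blood, spleen and lung it was 4, 16 without skin, and, in alternatives added after seeing the data, 2 without intestine and 16 without both. The cause was not tested. The F test passed for 5 S100 genes, and for 4 or 5 with 1 library left out. Partner ratios passed in 0 tests, 2 without skin, and 0 with 1 library left out, the design allowing no single ratio an adjusted p below 0.0588 with all libraries, so that the 0 says nothing of stability. The 2 without skin passed only together, tied at the smallest p of that design. Of the 37 other S100, receptor, partner and transcription factor genes tested, 25 passed the F test (31.9% of all genes), and 21 to 29 did with 1 library left out. The calls of S100a8, S100a9, S100a6, S100a11 and S100a10 between intestine and either blood or bone marrow held in all 27 alternatives, and no direction reversed for any result. Single-library dependence was greatest for skin replicate 1, without which S100a8 in skin differed from bone marrow by -1.37 and S100a9 by -1.80. S100a8 between skin and intestine was 2.74, 4.22 without skin replicate 1 and 1.59 without skin replicate 2.

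Replicate numbers are shared by all tissues, but nothing in the labels says that they pair libraries, and 1 of 45 same-number pairs of libraries had a correlation of deviations above 0.1 (median -0.00333). Letters in the column headers (A, B and C) follow these numbers, except that blood replicate 3 is marked D. Skin replicate 1 is marked Arep and blood replicate 2 Brep, and these marks are not explained. The check and the replicate block used the numbers. With the replicate block the 15 pairs gave 33 passing differences, the 10 pairs 21, the F test 5 S100 genes and 23 of the other list genes. In all, 7 of 18 libraries correlated best with their own number. The median of all genes between intestine and blood was 0.12 as deposited, -0.17 after quantile normalisation and 0.40 with median-of-ratios scaling. In bone marrow, S100a4 at 0 counts and S100a10 at 24, 1 and 2 counts limit what can be said of those genes at this depth.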
